A study of Mus musculus with 6 samples.

Results

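A set of 7 granulocyte-precursor genes, Mpo, Elane, Prtn3, Ctsg, Ms4a3, Ly6c2 and F13a1, were followed in RNA sequencing libraries of mouse fetal liver. They were chosen by gene symbol as proteins of the primary (azurophil) granule or as markers of granulocyte-monocyte progenitors. The choice was made with earlier results of these data known. All 7 were found among the 12579 genes of the count table. The libraries came from E14.5 fetal liver, with 3 libraries from Prl2+/+ and 3 from Prl2-/- embryos. Prl2 is the name the labels use for Ptp4a2, which encodes a small protein tyrosine phosphatase, and the study asked how its loss alters the transcriptome of these cells. The labels name no treatment, no conditional allele and no strain, and they do not say how the cells were sorted or enriched or whether each library came from a separate embryo. P-values below therefore cover the spread among these 6 libraries alone, and that spread may be technical.

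Primary granules are made early in neutrophil development, in the promyelocyte, which fills them with myeloperoxidase and serine proteases before it starts to make the contents of secondary granules. The proteases are made as inactive precursors, trimmed by cathepsin C (dipeptidyl peptidase I) and stored with the proteoglycan serglycin. Transcription of these genes depends on factors such as PU.1 (Spi1), C/EBP alpha (Cebpa), Runx1 and Myb. In the fetal liver, granulocyte precursors share the organ with erythroid cells, B cell precursors, megakaryocytes and hepatoblasts.

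The deposited counts summed to between 25965111 and 37026282 per library. Ptp4a2 had 8088, 9906 and 8135 counts in the Prl2+/+ libraries (replicates 1 to 3, the order used throughout) against 44, 38 and 38 in the Prl2-/- libraries, so each library matched its label. The labels call the cells haematopoietic stem and progenitor cells. Kit (188 to 247 CPM, the count after scaling every library to the same total) and Cd34 (170.5 to 209.8 CPM) were present in every library, as was Flt3 (18.7 to 32.8 CPM). Transcripts of later neutrophils were present too, with Ngp at 2379 to 4458 CPM and Ltf at 1472 to 3326 CPM. Of the 18 gene lists examined, hepatoblast markers varied most between libraries, with a summed level of 4675, 933 and 167 CPM in the Prl2+/+ libraries against 77.0, 2684 and 347 CPM in the Prl2-/- libraries. These were bulk samples, in which fewer cells of a type and less RNA per cell cannot be told apart.

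The promoter windows of the genes are shown because PU.1 is a known regulator of the granule program and because some of the genes varied together across libraries. Of the 21 pairs, the 6 among Mpo, Elane, Prtn3 and Ctsg had a Pearson's r of log2 CPM over 0.9. Ly6c2, by contrast, had an r of 0.26 to Mpo. Sequences are from RefSeq on GRCm38.p6, 5′ to 3′ on the strand of the gene, and the search covered the 250 bases before each start site. Capitals mark the letters GAGGAA, a core that PU.1 can bind, and positions count back from the start site.
Mpo: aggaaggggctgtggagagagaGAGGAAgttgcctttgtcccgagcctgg
Elane: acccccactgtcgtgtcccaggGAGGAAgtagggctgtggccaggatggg
Prtn3: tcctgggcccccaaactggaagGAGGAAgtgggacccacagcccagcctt
Ctsg: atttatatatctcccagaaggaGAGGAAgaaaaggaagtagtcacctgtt
Ly6c2: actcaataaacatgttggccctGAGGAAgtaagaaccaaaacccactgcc
F13a1: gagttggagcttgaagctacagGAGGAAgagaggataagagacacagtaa
The windows lie at chr11:87793538-87793587 (plus strand) for Mpo, chr10:79886205-79886254 (plus) for Elane, chr10:79879550-79879599 (plus) for Prtn3, chr14:56102763-56102812 (minus) for Ctsg, chr15:75112052-75112101 (minus) for Ly6c2 and chr13:37050283-37050332 (minus) for F13a1.

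GAGGAA, searched on both strands, was found in 6 of the 7 promoters and in 23.3% of the 32851 mouse promoters of the same table. For Ly6c2 and F13a1, 2 start sites were listed and the first was used, whereas shares over all promoters count every listed start. It started at position -85 in Elane and -95 in Prtn3, the 2 neighbouring protease genes, and at -66 in F13a1, -108 in Ly6c2, -216 in Ctsg and -224 in Mpo, which held another at -247. The longer form GAGGAAGT, looked for after the windows had been read, was in 4 of the 7 (Mpo, Elane, Prtn3 and Ly6c2) and in 2.44% of all promoters. The Ms4a3 promoter held no GAGGAA. It held TTNNGNAA, a simplified C/EBP site, at -59, and that motif was in 3 of the 7 promoters against 36.8% of all. The RUNX letters TGTGGT were in 2 of the 7 against 14.0%, and the MYB letters TAACNG in 2 of the 7 against 19.8%. TATAAA on the gene strand was in 0 of the 7 and in 7.59% of all promoters. A match describes the letters in a window and does not show binding.

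Myeloperoxidase was the most abundant transcript of the set. Mpo lies on chromosome 11 (87793784 to 87804412, plus strand) and encodes the haem enzyme that makes hypochlorous acid in the phagosome. Mpo counts were 258214, 360812 and 330315 in the Prl2+/+ libraries against 489554, 348050 and 491677 counts in the Prl2-/- libraries. Mpo alone took between 0.988% and 1.37% of all counts of a library, and ranked first of all genes by CPM in each of the 6 libraries. After TMM scaling, a correction for library size and composition, its levels were 9801, 10837 and 12770 CPM in Prl2+/+ and 13695, 11690 and 13297 CPM in Prl2-/-. Prl2+/+ replicate 1 was the lowest, and Prl2+/+ replicate 3 stood above Prl2-/- replicate 2, so the genotypes overlapped. The Prl2+/+ mean was 11136 ± 1507 CPM and the Prl2-/- mean 12894 ± 1062 CPM (SD, n = 3 each). The log2 fold change, Prl2-/- minus Prl2+/+, was 0.21 ± 0.11 (SE), with an adjusted p of 0.899 by edgeR's quasi-likelihood test with Benjamini-Hochberg adjustment over all genes. It was 0.13 without Prl2+/+ replicate 1 and 0.32 without Prl2+/+ replicate 3. Of the 50-base windows of the Mpo transcript, 14.0% occurred in another annotated transcript, nearly all in Gm11505 on the opposite strand, and the libraries do not mark the strand, so reads of both genes cannot be told apart there.

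The 3 neutrophil serine proteases had higher mean levels in Prl2-/- libraries, and none of them passed the test. Elane, neutrophil elastase, lies on chromosome 10 (79886312 to 79888216, plus strand), 3140 bp beyond Prtn3 on the same strand. Its level was 578, 671 and 918 CPM in the Prl2+/+ libraries against 1226, 796 and 1092 CPM in the Prl2-/- libraries. Elane spread the most of the 7 genes, 2.12-fold from lowest to highest library, and Prl2-/- replicate 2 lay within the Prl2+/+ range while the other Prl2-/- libraries lay above it. The Prl2+/+ mean was 722 ± 176 CPM and the Prl2-/- mean 1038 ± 219.8 CPM (SD, n = 3 each). The log2 fold change was 0.52 ± 0.21 (SE), with a 95% interval from 0.01 to 1.03 and an adjusted p of 0.899 by edgeR's quasi-likelihood test with Benjamini-Hochberg adjustment.

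Prtn3, proteinase 3 (chromosome 10, 79879667 to 79883172, plus strand), was at 761, 825 and 875 CPM in Prl2+/+ and 975, 826 and 983 CPM in Prl2-/-. Prl2-/- replicate 2 lay inside the Prl2+/+ range here as well, and the log2 fold change was 0.18 ± 0.09 (SE). Ctsg, cathepsin G (chromosome 14, 56099881 to 56102574, minus strand), was at 536, 527 and 703 CPM in Prl2+/+ and 802, 618 and 741 CPM in Prl2-/-. Its log2 fold change was 0.29 ± 0.14 (SE), and again the second Prl2-/- library and the third Prl2+/+ library made the groups overlap. Without that Prl2+/+ library the value for Ctsg was 0.44. The adjusted p was 0.899 for each of Prtn3 and Ctsg by edgeR's quasi-likelihood test with Benjamini-Hochberg adjustment.

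Ms4a3, a membrane protein whose expression marks granulocyte-monocyte progenitors (chromosome 19, 11629499 to 11640851, minus strand), was the one gene of the set whose genotypes did not overlap. It was at 611, 628 and 660 CPM in the Prl2+/+ libraries against 803, 699 and 696 CPM in the Prl2-/- libraries. The lowest Prl2-/- library stood above the highest Prl2+/+ library. Of all 12576 genes tested, 6.03% separated in this direction, 5.07% in the other and 11.1% in either. The log2 fold change was 0.21 ± 0.07 (SE), with a 95% interval from 0.04 to 0.39 and an adjusted p of 0.899 by edgeR's quasi-likelihood test with Benjamini-Hochberg adjustment. Without Prl2-/- replicate 1, its highest library, the value was 0.14.

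The remaining pair are markers shared with the monocyte side of the lineage. Ly6c2 encodes a GPI-anchored surface protein that makes up part of the Ly6C antigen (chromosome 15, 75108161 to 75111949, minus strand). It was at 358, 309.8 and 427 CPM in Prl2+/+ and 362, 241 and 349 CPM in Prl2-/-. It was the one gene with a lower mean in Prl2-/- (318 ± 66.4 CPM against 365 ± 58.8 CPM, SD, n = 3 each), the groups overlapped, and the log2 fold change was -0.20 ± 0.18 (SE). It was -0.04 without Prl2-/- replicate 2 and -0.07 without Prl2+/+ replicate 3, and -0.31 without either Prl2+/+ replicate 2 or Prl2-/- replicate 1. Of the 50-base windows of its transcript, 33% occurred in another annotated transcript, nearly all in Ly6c1 on the same strand. Ly6c1 itself is absent from the count table. The Ly6c2 counts are therefore uncertain where reads of the copies could be split.

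F13a1, the catalytic A subunit of coagulation factor XIII, found in monocytes, macrophages and megakaryocytes (chromosome 13, 36867178 to 37050244, minus strand), was the scarcest. It was at 31.8, 41.2 and 57.5 CPM in Prl2+/+ and 45.5, 36.6 and 61.2 CPM in Prl2-/-. The third library of each genotype was the highest, and the spread within a genotype exceeded the difference between them. Its log2 fold change was 0.14 ± 0.26 (SE), and it changed sign to -0.04 without Prl2+/+ replicate 1 and to -0.08 without Prl2-/- replicate 3, and was 0.39 without Prl2+/+ replicate 3.

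**Figure D1:**
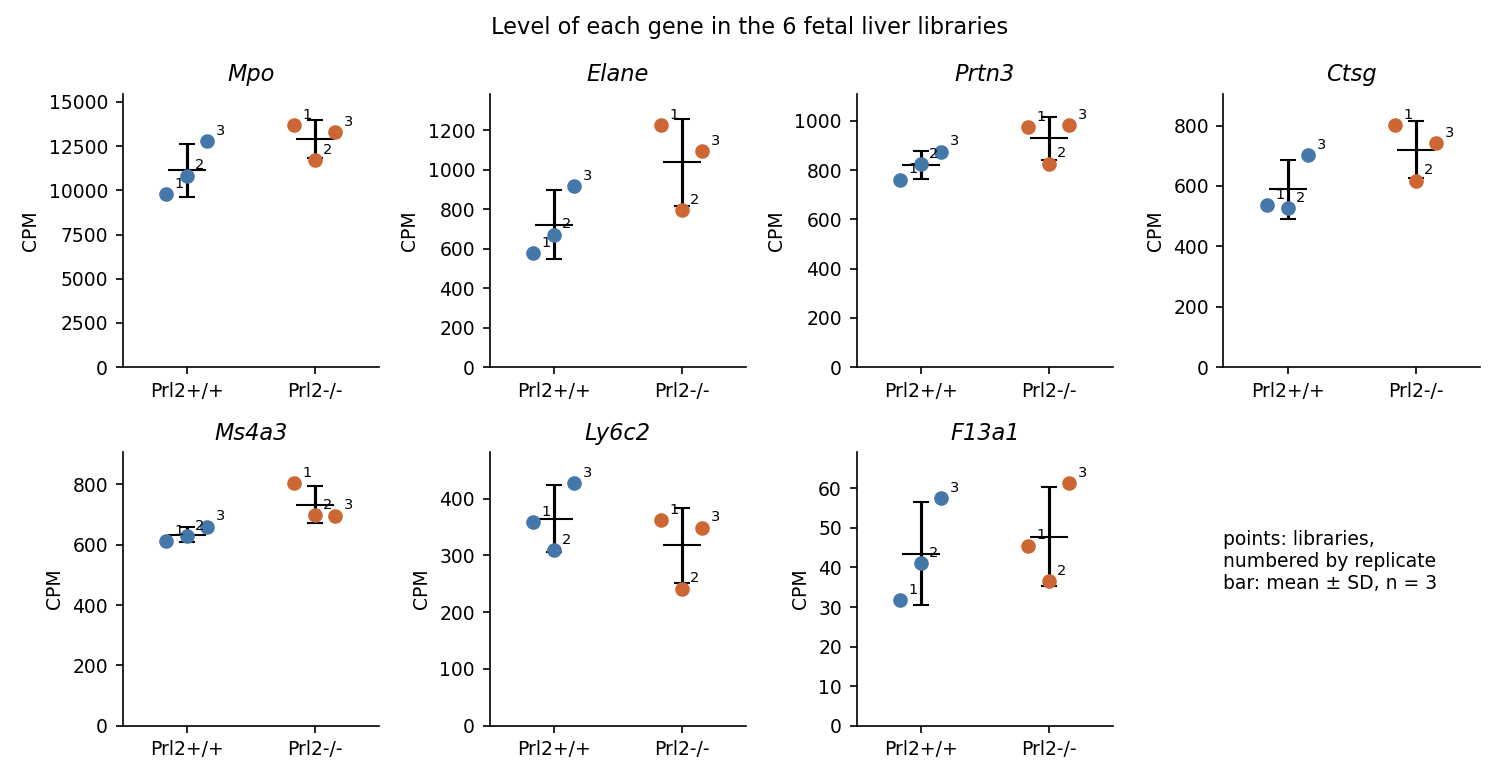
Level of each of the 7 genes in CPM (vertical axis, from 0) in Prl2+/+ (blue) and Prl2-/- (orange) libraries, with points numbered by replicate and bars for mean ± SD, n = 3. Ms4a3 is the one panel whose groups do not overlap, at 611 to 660 CPM against 696 to 803 CPM.

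Read together, 0 of the 7 genes passed an adjusted p of 0.05, where 5 of 12576 genes (0.0398%) did, 0.0159% higher and 0.0239% lower in Prl2-/-. At an unadjusted p below 0.05 by edgeR there were 2 of the 7, Ms4a3 and Elane, both higher in Prl2-/-, against 1.97% of all genes in that direction and 4.6% in either. By DESeq2 the count of genes of the set called was also 0. The estimate was above 0 for 6 of the 7 genes, against 49.8% of all genes tested, and the median log2 fold change was 0.21, against -0.0007 over all genes. The 7 genes share libraries, are not independent of each other and were chosen with earlier results of these data known. The counts of 2 and of 6 are therefore descriptions.

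**Figure D2:**
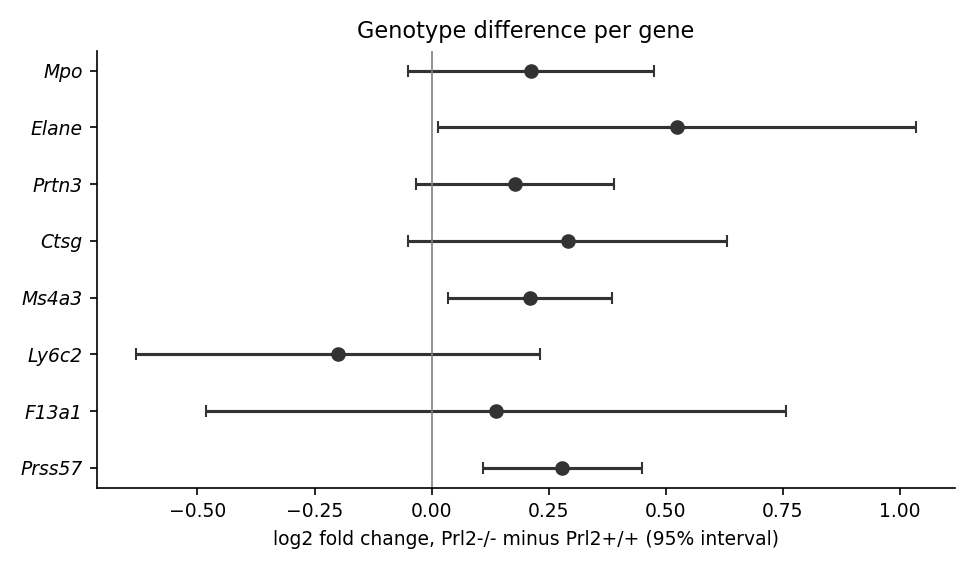
Log2 fold change, Prl2-/- minus Prl2+/+ (horizontal axis), of the 7 genes and of the nearby granule protease gene Prss57, with 95% intervals from edgeR's quasi-likelihood fit. Estimates run from -0.20 (Ly6c2) to 0.52 (Elane), and the intervals of Elane, Ms4a3 and Prss57 lie above 0 before adjustment for all genes tested. Prss57 is from a list of 17 other measured azurophil granule cargo genes, with 4 estimates above 0 and 13 below (median -0.13). The interval of Ctsc, of the same list and not drawn, lies below 0 (log2 fold change -0.30).

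Scaled per kilobase of exon, the 7 genes held their order in every library except within 2 pairs of neighbours. The mean level over the 6 libraries was 4719 ± 594 CPM per kb for Mpo and 957 ± 270 CPM per kb for Elane (SD, n = 6). Prtn3 followed at 901 ± 91.7, Ms4a3 at 677 ± 68.0, Ctsg at 653 ± 112 and Ly6c2 at 426 ± 77.1 CPM per kb. F13a1 closed the order at 11.6 ± 2.97 CPM per kb. The ranges over libraries separated Mpo from Elane, and Ly6c2 from F13a1, while every pair of neighbours between them overlapped in range. Compared within each library, Prtn3 was above Ms4a3 in 6 of 6 and Ctsg above Ly6c2 in 6 of 6. Elane was above Prtn3 in 4 of the 6 libraries, and Ms4a3 above Ctsg in 3 of the 6.

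The 7 genes together took 1.28%, 1.37% and 1.63% of the counts in the Prl2+/+ libraries against 1.79%, 1.503% and 1.72% in the Prl2-/- libraries. The Wilson 95% intervals of these shares were narrow, from 1.27% to 1.28% in the first Prl2+/+ library and from 1.78% to 1.79% in the first Prl2-/- library, and cover counting error only. The order of the libraries, lowest to highest, was the same for Mpo and Elane: Prl2+/+ replicates 1 and 2, Prl2-/- replicate 2, Prl2+/+ replicate 3, then Prl2-/- replicates 3 and 1. Over the 6 libraries, Pearson's r of log2 CPM was 0.98 between Mpo and Elane, 0.96 between Mpo and Ctsg and 0.96 between Elane and Prtn3. With each genotype centred on its own mean, r for Mpo and Elane was again 0.98. These values describe 6 points that share their depth and cell mixture. Ly6c2 had an r of 0.26 to Mpo over all libraries, and with genotypes centred 0.75 to Mpo, 0.85 to Elane and 0.92 to Ctsg. Ms4a3 had an r of 0.82 to Mpo over all libraries, and with genotypes centred 0.67 to Mpo, 0.57 to Prtn3 and 0.26 to F13a1.

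**Figure D3:**
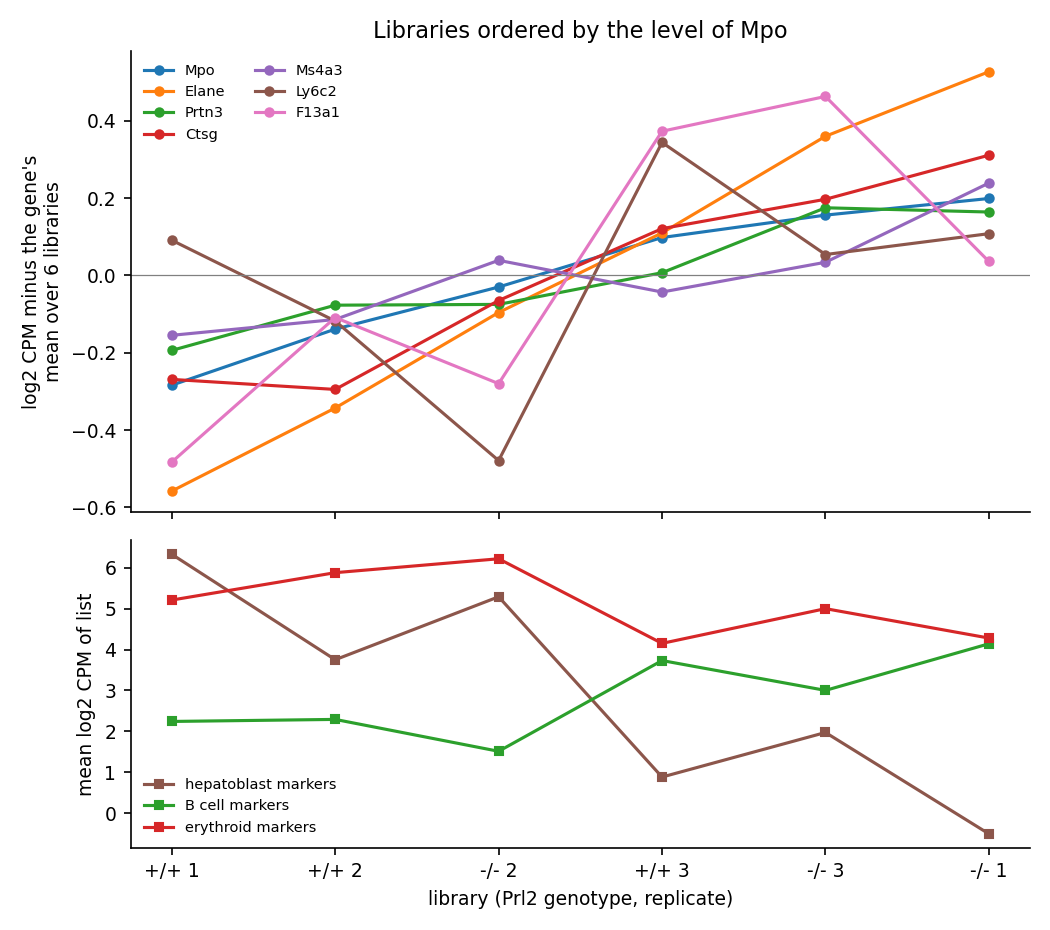
Upper panel, log2 CPM of each of the 7 genes minus its mean over the 6 libraries (vertical axis), with libraries ordered by the level of Mpo (horizontal axis); lower panel, mean log2 CPM of hepatoblast, B cell and erythroid marker lists in the same libraries. Elane spans -0.56 to 0.53, the steepest line among the protease genes, and the hepatoblast line runs against the granule genes.

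The libraries low in granule transcripts were high in hepatoblast markers. The hepatoblast list, with Afp, Alb and Trf among its 17 measured genes, had a summed level of 4675 CPM in Prl2+/+ replicate 1 and 2684 CPM in Prl2-/- replicate 2. It was 77.0 CPM in Prl2-/- replicate 1, the library highest in Mpo. The estimates of all 17 were negative (median log2 fold change -1.16), and none was called. The mean hepatoblast level and the mean of the 7 genes had an r of -0.93 over the 6 libraries. Hepatoblast markers were not alone in this. The r to the mean of the 7 genes was 0.83 for B cell, -0.78 for monocyte and -0.74 for erythroid markers, and -0.03 for proliferation genes. With the hepatoblast level as a covariate in the edgeR fit, the log2 fold change of Elane was 0.37 ± 0.07 (SE, adjusted p = 0.444) and that of Mpo 0.14 ± 0.08 (SE, adjusted p = 0.965). Ly6c2 was at -0.32 ± 0.12 (SE) in that fit. With Prl2+/+ replicate 1 and Prl2-/- replicate 2 both left out, Elane was at 0.54 ± 0.17 (SE) and Ly6c2 at -0.05 ± 0.16 (SE). Erythroid markers were highest in Prl2-/- replicate 2 (1557 CPM summed, against 581 to 1194 CPM elsewhere). B cell markers ran from 76.0 CPM in that library to 439 CPM in Prl2-/- replicate 1, and the part of either list in the result was not tested.

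Ratios between the genes do not depend on library scaling, and 21 pairs were compared. The genotypes separated in 4 of the 21, each of them a ratio of Ly6c2 to Mpo, Elane, Prtn3 or Ctsg. These 4 share Ly6c2, and Mpo, Elane, Prtn3 and Ctsg had an r over 0.9 with each other, so the 4 are not independent. The uncertainty of the Ly6c2 counts given above holds for each of these ratios. Ly6c2 stood at 0.620, 0.462 and 0.465 of the Elane level (counts, not per length) in the Prl2+/+ libraries against 0.296, 0.303 and 0.320 in the Prl2-/- libraries. The difference in mean log2 ratio, Prl2-/- minus Prl2+/+, was -0.74 for Ly6c2 to Elane, -0.51 to Ctsg, -0.43 to Mpo and -0.39 to Prtn3. Each had a two-sided exact permutation p of 0.1, the smallest that 3 against 3 allows, and 0.42 after adjustment over the 21 pairs. Among all genes, 13.8% separated by genotype in their ratio to Elane, 12.1% to Ctsg, 14.6% to Mpo and 16.2% to Prtn3.

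The genes that make, process and pack these proteins did not share one direction, and none passed the test. Of 17 other measured azurophil granule cargo genes, 4 had an estimate above 0 and 13 below, with a median of -0.13. The groups separated for 1 of them higher and 2 lower in Prl2-/-, against 6.03% and 5.07% of all genes. Prss57, the fourth neutrophil serine protease, was at 101, 108 and 99.8 CPM in Prl2+/+ and 121, 119 and 135 CPM in Prl2-/-. Its groups did not overlap. The log2 fold change of Prss57 was 0.28 ± 0.07 (SE), with a p of 0.00620 by edgeR's quasi-likelihood test and 0.899 after Benjamini-Hochberg adjustment. Lysozyme (Lyz2), the most abundant of this list, was at 3021, 3962 and 3490 CPM in Prl2+/+ and 2344, 3374 and 4852 CPM in Prl2-/-, a log2 fold change of 0.01 ± 0.25 (SE).

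Among 18 genes for activation, packing and sorting of granule proteases, 6 were above 0 and 12 below, with a median of -0.06. The groups separated for 1 higher and 2 lower in Prl2-/-, against 6.03% and 5.07% of all genes tested. Ctsc is on this list and on the azurophil cargo list, and is counted among the 2 lower in both. Ctsc, cathepsin C, was at 1004, 1058 and 903 CPM in Prl2+/+ and 784, 795 and 824 CPM in Prl2-/-. The groups did not overlap, and all 3 Prl2-/- libraries stood below the Prl2+/+ ones, the opposite side from Prss57 and Ms4a3. For Ctsc the log2 fold change was -0.30 ± 0.07 (SE), with a p of 0.00383 by edgeR's quasi-likelihood test and 0.899 after Benjamini-Hochberg adjustment. Serglycin (Srgn), which holds proteases in the granule, was at 562, 476 and 567 CPM in Prl2+/+ and 408, 454 and 523 CPM in Prl2-/-, a log2 fold change of -0.21 ± 0.11 (SE).

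Protease inhibitors divided into 4 above 0 and 8 below, with a median of -0.12. Cystatin F (Cst7), an inhibitor of cathepsin C, was at 59.3, 65.1 and 78.9 CPM in Prl2+/+ and 91.1, 79.3 and 90.8 CPM in Prl2-/-, with a log2 fold change of 0.36 ± 0.12 (SE). Serpinb2, of the same list, was at 23.8, 18.3 and 18.3 CPM in Prl2+/+ and 15.1, 16.3 and 14.3 CPM in Prl2-/-. Its log2 fold change was -0.41 ± 0.13 (SE). The groups separated for 1 gene of this list higher and 1 lower in Prl2-/-, against 6.03% and 5.07% of all genes tested. Serpinb1a, a serpin that inhibits elastase, proteinase 3 and cathepsin G, was at 721, 787 and 711 CPM in Prl2+/+ and 570, 721 and 788 CPM in Prl2-/-, a log2 fold change of -0.09 ± 0.12 (SE). For the haem synthesis and chaperone genes that serve myeloperoxidase, 6 of 12 were above 0 with a median of 0.01. Calreticulin (Calr), a chaperone of the myeloperoxidase precursor, was at 2384 to 2564 CPM in all libraries with a log2 fold change of -0.0023 ± 0.05 (SE). Pdia3, on the same list, was at 1298, 1205 and 1156 CPM in Prl2+/+ and 883, 1049 and 1129 CPM in Prl2-/-. Its log2 fold change was -0.26 ± 0.10 (SE). It was the 1 gene of the 12 whose groups did not overlap, against 11.1% of all genes tested. Of 8 NADPH oxidase and peroxidase partners, 3 were above 0 and 5 below.

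The 15 transcription factors of the program had a median of -0.05, with 5 above 0. The groups separated for 1 of the 15, below the 11.1% of all genes tested. That gene was Cebpa, at 28.4, 28.2 and 29.6 CPM in Prl2+/+ and 41.0, 30.9 and 32.2 CPM in Prl2-/-. For Cebpa the log2 fold change was 0.27 ± 0.12 (SE), and edgeR's quasi-likelihood test gave a p of 0.0554, or 0.899 after Benjamini-Hochberg adjustment. Spi1, which encodes PU.1, was at 324, 383 and 344 CPM in Prl2+/+ and 315, 323 and 360 CPM in Prl2-/-, a log2 fold change of -0.07 ± 0.08 (SE). Gfi1, a repressor needed for neutrophil development, had a log2 fold change of 0.01 ± 0.09 (SE).

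Markers of the same and later stages gave the surroundings of these values. Of 24 other granulocyte-monocyte progenitor markers, 15 were above 0 and 9 below, with a median of 0.03. Nkg7, a granule membrane protein of cytotoxic cells that is also found in progenitors, was at 76.2, 82.6 and 83.7 CPM in Prl2+/+ and 99.2, 89.5 and 113 CPM in Prl2-/-. Clec5a, a myeloid lectin receptor, stood on the other side, at 181, 183 and 185 CPM in Prl2+/+ and 128, 162 and 166 CPM in Prl2-/-, a log2 fold change of -0.27 ± 0.10 (SE). In this list 2 genes separated higher and 1 lower in Prl2-/-, against 6.03% and 5.07% of all genes. Chil3 spread 52.5 to 284 CPM in Prl2+/+ and 133 to 429 CPM in Prl2-/-, a log2 fold change of 1.09 ± 0.67 (SE). The secondary granule and mature neutrophil list had 4 of 19 genes above 0 and a median of -0.10. Its summed level was 14174, 15405 and 15763 CPM in Prl2+/+ and 10731, 12648 and 19590 CPM in Prl2-/-, so by this sum Prl2-/- replicate 1, the library highest in Mpo, was the lowest. The sum rests on a few abundant genes. By mean log2 CPM of the list, Prl2-/- replicate 2 was the lowest (7.61, against 7.74 in replicate 1), and Prl2-/- replicate 3 was the highest on both measures (8.42). Monocyte markers had 5 of 18 above 0 with a median of -0.09, and macrophage markers 6 of 12 with a median of -0.05. Mast cell, basophil and eosinophil markers had 2 of 13 above 0 with a median of -0.26. Mcpt8, a protease gene of that list 14684 bp from Ctsg, was at 169, 164 and 141 CPM in Prl2+/+ and 114, 113 and 146 CPM in Prl2-/-, and Ctsg itself had its estimate on the other side of 0.

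**Figure D4:**
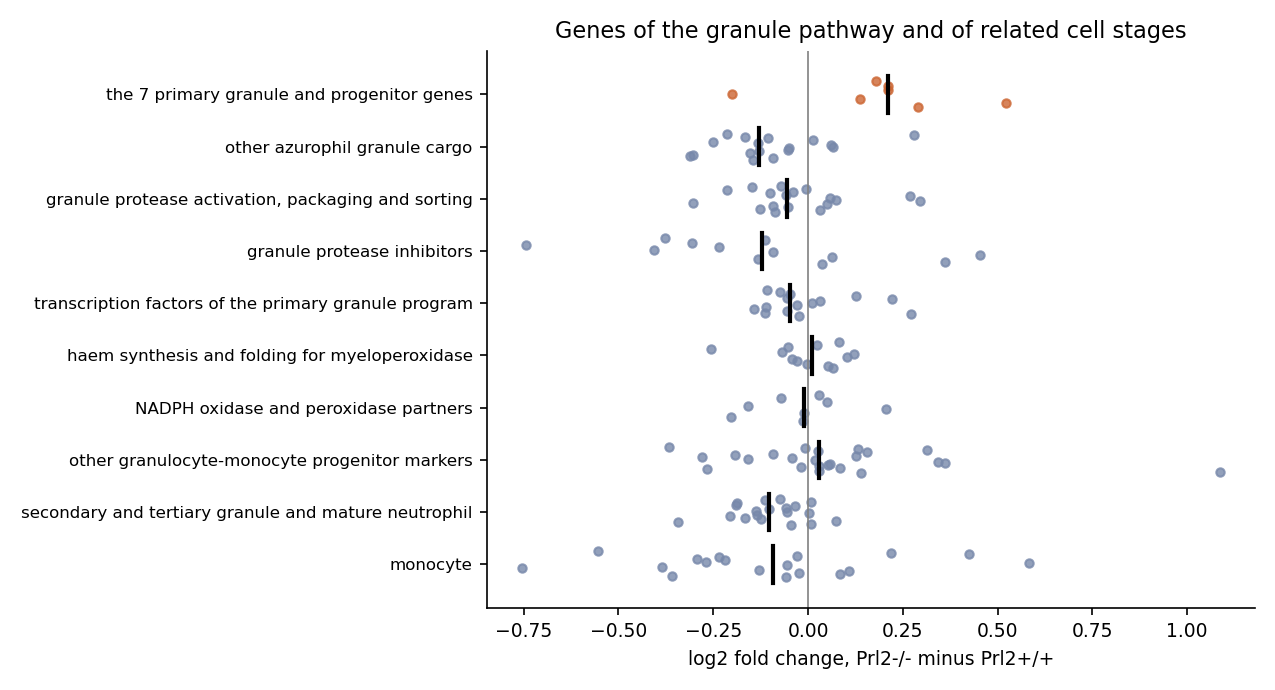
Log2 fold change, Prl2-/- minus Prl2+/+ (horizontal axis), of each measured gene in 10 lists (rows), with black lines at the list medians and the 7 primary granule and progenitor genes in orange. Their median is 0.21, against -0.13 for other azurophil granule cargo and -0.10 for the secondary granule list, and no gene shown passed the adjusted threshold.

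Elane and Prtn3 lie in a stretch of chromosome 10 with 20 further protein-coding genes of the table within 200 kb. None of the 20 was called, 13 were above 0 and 7 below, with a median of 0.05 and a range from -0.08 to 0.34. The groups did not overlap for 2 of the 20, Prss57 and Med16, a share near the 11.1% of all genes tested. Prss57 lies 97327 bp from Elane on the opposite strand. Med16, a subunit of the mediator complex 6491 bp from Elane, had a log2 fold change of 0.15 ± 0.06 (SE). Beside Mpo, the eosinophil peroxidase gene Epx, 59586 bp away, had a log2 fold change of -0.01 ± 0.28 (SE).

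**Figure D5:**
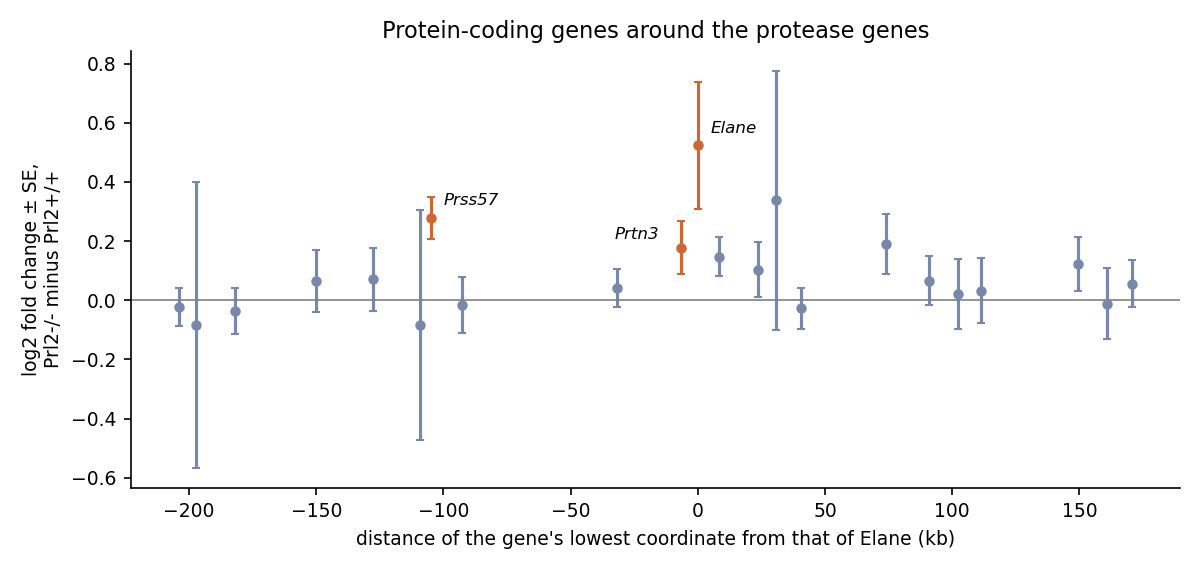
Log2 fold change ± SE, Prl2-/- minus Prl2+/+ (vertical axis), of protein-coding genes within 200 kb of Elane against the distance of each gene's lowest coordinate from that of Elane (horizontal axis, kb). Elane stands highest at 0.52, with Prtn3 at 0.18 and Prss57 at 0.28 in orange, while the 20 genes other than Elane and Prtn3 lie between -0.08 and 0.34.

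Some genes followed the set closely across the 6 libraries. By Pearson's r between log2 CPM and the mean of the 7 centred profiles, over genes whose mean log2 CPM reached 2, the closest were 1500011B03Rik (r = 0.993), Rab35 (0.991) and Csgalnact1 (0.989). Chil3 (0.978) and Myb (0.978) were also among the first 10. With Mpo alone the closest were Rnf219 (0.996), Mettl2 (0.990) and Chil3 (0.987). Closest to Ms4a3 was Adprhl2 (0.997), to Elane Zdhhc8 (0.995) and to Ly6c2 Pik3r4 (0.990). An r over 0.9 with the mean profile was reached by 146 of the 10075 genes compared. The values above were picked as the highest or from the first 10, and give likeness of profile over 6 libraries only.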

How the data were processed

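Total RNA of 6 fetal liver samples was copied to cDNA with a low-input template-switching kit and made into libraries by tagmentation, per the labels' protocols; this chemistry does not mark the strand. The authors deposited raw counts per gene, per the file headers. Reads were aligned with STAR and counted with featureCounts, per the submitters' processing notes; for versions, build and multi-mapped reads, the record is: not given in the sources used here. Positions of the table overlapped GENCODE M21 (GRCm38) for 12105 of 12114 shared symbols, so positions are given on that build. All genes in the table reached 0.231 CPM (of the table total) in at least 3 libraries, so scarcer genes were not analysed here. Depth was 25965111 to 37026282 counts, and no pair of libraries was identical.

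Counts were tested with edgeR 4.0.16 in R 4.3.3: filterByExpr (12576 of 12579 genes kept), TMM factors, the quasi-likelihood F test between genotypes with no covariate, and Benjamini-Hochberg adjustment over all genes at 0.05. SE is the fold change over the root of F. All 7 genes passed the filter. CPM used TMM-scaled library sizes, and log2 CPM a prior count of 2. The workflow was tested on simulated data. Alternatives were DESeq2 1.42.0, limma-voom (limma 3.58.1), the likelihood ratio test, other scalings and filters, the replicate number as a block, a hepatoblast covariate and libraries left out. Promoters came from RefSeq. Descriptive values were computed in Python 3.11.15 with pandas 2.3.3 and scipy 1.17.1. The 7 genes and all lists were chosen with earlier results of these data known. Lists share some genes, among them Ctsc, Cst7, Epx, Kit and Cd34. Named genes are the 7, protein-coding neighbours within 200 kb, Ptp4a2, up to 4 genes of each list (called, or of highest level or smallest p) and those most alike in profile. Gfi1, Flt3, Clec5a and Serpinb2 are named outside that rule, after their values were seen.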

Additional observations from a re-analysis of the deposited data

How the results depend on the processing

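None of the 7 genes was called under any of 16 alternatives. Over them the log2 fold change ran from 0.13 to 0.32 for Mpo, 0.37 to 0.73 for Elane, 0.12 to 0.25 for Prtn3, 0.20 to 0.44 for Ctsg, 0.14 to 0.25 for Ms4a3 and -0.32 to -0.04 for Ly6c2. The lowest adjusted p was 0.444 (Elane, hepatoblast covariate) and 0.614 (Ms4a3, DESeq2). F13a1 ran from -0.082 to 0.39 and changed sign without Prl2+/+ replicate 1 (-0.04) and without Prl2-/- replicate 3 (-0.082). The number of genes called among all was 5 by the quasi-likelihood test, 36 by DESeq2, 21 by the likelihood ratio test, 3 to 4 with 1 library left out, and 1 without Prl2+/+ replicate 1 and Prl2-/- replicate 2 together; the cause was not tested. Scaling and filter alternatives gave 5 or 6. With the replicate number as a block, 1 gene was called and Elane was at 0.53 ± 0.19 (SE). Deviations of same-numbered libraries from their genotype means correlated at -0.64, 0.21 and 0.17, and those of differently numbered libraries from -0.813 to 0.745. Whether same-numbered libraries shared a preparation was not tested. Each genotype had 3 libraries, and the common biological coefficient of variation was 0.264.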

Other observations

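Megakaryocyte and platelet markers had 13 of 15 genes above 0, with a median log2 fold change of 0.30 and 0 genes called by edgeR's quasi-likelihood test (1 at an unadjusted p below 0.05). Selp, P-selectin of platelet granules, was at 4.10, 2.82 and 2.44 CPM in the Prl2+/+ libraries against 9.74, 5.94 and 4.68 CPM in the Prl2-/- libraries, so the genotypes did not overlap, as for 6.03% of all genes in that direction. The log2 fold change of Selp was 1.12 ± 0.34 (SE), and the adjusted p by edgeR's quasi-likelihood test was 0.899. Stem and progenitor markers had 14 of 16 genes above 0 with a median of 0.13, and B cell markers 12 of 13 with a median of 0.30. In either list 0 genes had an unadjusted edgeR p below 0.05. The summed B cell level ran from 76.0 CPM (replicate 2) to 439 CPM (replicate 1) within Prl2-/-. Over all genes tested, 49.8% were above 0. Genes of a list share libraries and are not independent, so these counts are descriptions. Proliferation genes had 4 of 12 above 0 with a median of -0.04, and erythroid markers 6 of 13 with a median of -0.0026.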
